A study of Mus musculus with 8 samples.

Results

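The genes of insulin signalling and glucose use described here are Slc2a4, Insr, Irs1, Irs2, Akt2, Pck1, Hk2, Pfkfb3, Foxo1 and Slc2a1. They were found by matching current or older symbols to the annotation of the probes, which gave 11 probes for the 10 genes among 25697 probes of 16593 named genes, with 2 probes for Akt2 and 1 for each other gene. Of these 11 probes, 8 (1 for each of 8 genes) were above background and could be tested, among 13665 tested probes of 9525 genes. The RNA came from perigonadal white adipose tissue (pgWAT, the visceral fat beside the epididymis) of 8 male mice labelled B6 (the Cre line is given as C57BL/6J in the methods), each read on its own Illumina MouseRef-8 v2.0 array. Of these, 3 are labelled as knockout (FKO: floxed Ogt on the single X chromosome, OGT flox/Y, with Cre under the adipocyte promoter of Adiponectin) and 5 as wildtype (Con: littermates with the same floxed allele and no Cre). All had eaten a high-fat diet for 3 days, by the study's methods, and the labels give an age of 15 weeks. The methods also state that mice were fasted for some hours before tissues were collected. Cre is active only in adipocytes, so other cells of the fat pad keep Ogt.

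Insulin binds its receptor, which phosphorylates adaptor proteins of the IRS family, and these pass the signal through phosphatidylinositol 3-kinase to the kinase AKT. In adipocytes AKT moves vesicles that carry the glucose carrier GLUT4 to the cell surface, and it keeps the transcription factor FOXO1 out of the nucleus. Glucose taken up is phosphorylated by hexokinase and used for energy, glycerol and fatty acids. In the fasted state the same cells make glycerol 3-phosphate by a route that starts with PEPCK, and fasting is known to raise Irs2 and Pck1 in several tissues.

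The stretches just before and after the starts of 4 member genes are shown because the member transcripts varied between mice in 2 ways, Irs2 and Pck1 being highest in the same pair of mice and Slc2a1 and Hk2 in another 3. Each is the RefSeq sequence of build GRCm38.p6 from 250 bases before to 50 bases after the start of the gene, 5′ to 3′ on the strand of the gene. Capitals mark the letters searched for, which were TGACGT (the core of a cAMP response element), ACGTG (the core bound by hypoxia inducible factors), CACGTG (an E-box, bound among others by the glucose sensing factor ChREBP and by USF) and GTAAACA (a FOXO site), on both strands. ACGTG lies within CACGTG and can overlap TGACGT.
Pck1: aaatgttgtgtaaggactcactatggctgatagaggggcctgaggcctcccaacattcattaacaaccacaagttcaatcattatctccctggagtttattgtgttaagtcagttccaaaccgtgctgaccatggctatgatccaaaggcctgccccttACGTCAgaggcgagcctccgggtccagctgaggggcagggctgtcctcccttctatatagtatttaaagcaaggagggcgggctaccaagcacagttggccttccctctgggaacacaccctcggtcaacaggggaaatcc
Irs2: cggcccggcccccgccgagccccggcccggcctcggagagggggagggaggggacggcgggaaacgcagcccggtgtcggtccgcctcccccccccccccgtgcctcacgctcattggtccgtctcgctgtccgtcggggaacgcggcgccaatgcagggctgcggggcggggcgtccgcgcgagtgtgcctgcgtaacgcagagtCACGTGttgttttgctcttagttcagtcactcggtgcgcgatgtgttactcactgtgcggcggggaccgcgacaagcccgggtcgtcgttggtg
Slc2a1: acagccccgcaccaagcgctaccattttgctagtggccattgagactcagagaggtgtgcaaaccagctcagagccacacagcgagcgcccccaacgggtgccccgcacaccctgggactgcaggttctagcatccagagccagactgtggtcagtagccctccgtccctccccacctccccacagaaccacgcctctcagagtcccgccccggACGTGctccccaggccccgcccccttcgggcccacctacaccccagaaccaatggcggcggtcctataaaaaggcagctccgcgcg
Hk2: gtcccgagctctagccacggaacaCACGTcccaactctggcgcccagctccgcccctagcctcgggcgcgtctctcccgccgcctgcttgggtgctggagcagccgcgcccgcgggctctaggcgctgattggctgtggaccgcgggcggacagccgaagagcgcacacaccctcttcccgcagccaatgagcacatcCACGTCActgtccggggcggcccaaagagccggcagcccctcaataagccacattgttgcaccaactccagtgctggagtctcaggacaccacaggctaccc

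The Pck1 stretch (chr2:173152823-173153122, plus strand) held ACGTCA, the reverse complement of TGACGT, 91 bases before the start. The Irs2 stretch (chr8:11008880-11009179, minus strand) held CACGTG 44 bases before the start. Slc2a1 (chr4:119108495-119108794, plus strand) had ACGTG at 36 bases. Hk2 (chr6:82774405-82774704, minus strand) had CACGT, the reverse complement of ACGTG, at 226 and 52 bases, the second overlapping ACGTCA at 51 bases. None of the 4 held GTAAACA. Among 32851 promoters of the same length, 7.51% held TGACGT, 19.6% ACGTG, 7.15% CACGTG and 3.65% GTAAACA on either strand. RefSeq promoters were matched for 8 of the 10 members, all but Slc2a4 and Insr. These matches are letters in a window and say nothing of binding in these mice.

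Values are intensities on a linear scale, as deposited, and those of different probes were not compared. Background had not been subtracted: 52.4% of all values lay within 10 units of 98.8, and a probe was taken as above background over a limit of 106.5. Between 50.7% and 50.8% of probes per array passed that limit. The 3 probes of Ogt, the enzyme that adds O-GlcNAc to proteins and the gene deleted in FKO adipocytes, did not separate the labels (exact permutation p between 0.768 and 0.946, two-sided). Its brightest probe read 296, 177 and 260 in FKO 1 to 3, against 188, 264, 199, 232 and 267 in Con 1 to 5. Where the probes lie relative to the deleted part was not settled, and the study's methods give the 2 group sizes the other way round, whereas its figure legends give them as the labels do. FKO and Con therefore mean the labels throughout, with mice numbered as the labels number them. All 8 adipocyte markers with a probe (of 9 listed, Adipoq and Plin1 among them) were above background in every mouse. Epididymal transcripts were not even: the summed level of 8 marker genes above background was 9555, 39.5 and 17550 in FKO 1 to 3, against 67.8 to 2454 in Con, where Con 2 was highest. In bulk tissue, fewer cells of a type and less RNA per cell cannot be told apart.

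The receptor itself gave no level. Insr, which encodes the insulin receptor, read between 99.8 and 101.3 in FKO and between 98.2 and 106.4 in Con (ILMN_2628026), above the limit in 0 mice. Irs1, the adaptor best known for insulin action in muscle and fat, read between 99.5 and 104.1 in FKO and between 101.7 and 108.0 in Con (ILMN_1248206), above the limit only in Con 2. Neither was well above background, so neither was tested, and these probes say nothing about whether the genes are expressed.

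Irs2, the second main adaptor of the insulin receptor, varied widely, with a highest value 2.34 times the lowest (ILMN_3144164), and Pck1 varied about as much (2.27 times). It read 368, 171 and 199 in FKO 1 to 3, against 164, 230, 157, 351 and 206 in Con 1 to 5. One mouse of each label, FKO 1 and Con 4, stood well above the other 6, and the ranges of the labels overlapped over nearly their whole length. Irs2 averaged 246 ± 107 in FKO (SD, n = 3) and 222 ± 78.1 in Con (SD, n = 5). On the log2 scale after background correction the difference (FKO minus Con) was 0.16 with a standard error of 0.38 and a 95% interval of −0.72 to 1.03, a fold of between 0.606 and 2.05 (exact permutation test, two-sided, p = 0.714).

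Akt2, the AKT kinase that carries most of the insulin signal to glucose uptake in fat, was read by 2 probes. With ILMN_2655895 it read 211, 189 and 180 in FKO 1 to 3, against 183, 207, 206, 237 and 274 in Con 1 to 5. Con 5 was highest and FKO 3 lowest, and Con 1, Con 2 and Con 3 lay inside the FKO range. The means were 193 ± 16.2 in FKO (SD, n = 3) and 221 ± 35.3 in Con (SD, n = 5), and the log2 difference was −0.23 (standard error 0.16, 95% interval −0.58 to 0.13, exact permutation p = 0.321). The other probe, ILMN_1255147, was above the limit in 0 mice and was not tested.

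Foxo1, the transcription factor that insulin switches off, gave the most negative difference of the members (ILMN_2656498). It read 422, 349 and 308 in FKO 1 to 3, against 310, 457, 431, 475 and 441 in Con 1 to 5. Con 2 to Con 5 lay above all 3 FKO mice, whereas Con 1 lay among the lowest with FKO 3. The means were 359 ± 58.0 in FKO and 423 ± 65.1 in Con, with a log2 difference of −0.26 (standard error 0.17, 95% interval −0.66 to 0.14, exact permutation p = 0.286). FKO 3 also had the lowest summed level of the adipocyte markers, 36230 against 42320 to 48910 in Con and 42540 and 43750 in FKO 1 and FKO 2. The markers did not all go this way. FKO 3 was lowest for Adipoq, Fabp4 and Pnpla2, and other mice were lowest for Cidec, Lep, Lipe, Plin1 and Pparg. Pnpla2 is also counted below among transcripts that FOXO factors or fasting raise. The part of the adipocyte marker level in the Foxo1 value was not tested.

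**Figure D1:**
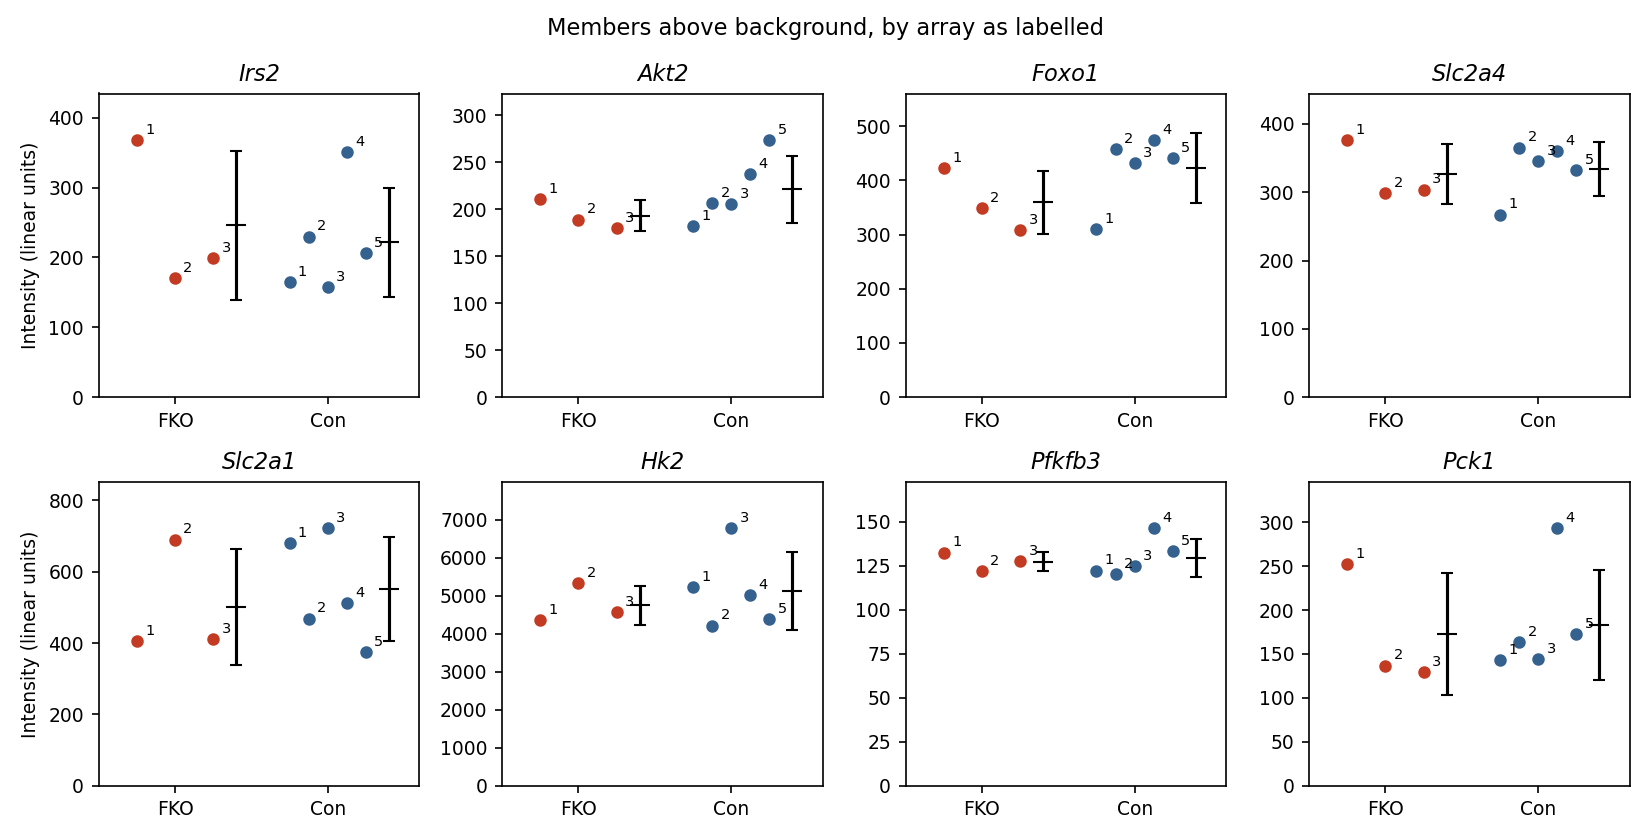
Intensity (linear units, as deposited) of the 8 members above background, 1 panel per gene. Each point is 1 mouse, FKO in red on the left and Con in blue on the right, with its label number beside it, and the bar is the mean with the SD. The 2 labels overlap for every gene, and the high points of Irs2 and of Pck1 are FKO 1 and Con 4.

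Slc2a4 encodes GLUT4, the glucose carrier that insulin brings to the surface of fat and muscle cells. It read 377, 299 and 304 in FKO 1 to 3, against 267, 365, 346, 360 and 332 in Con 1 to 5 (ILMN_1222333). The highest value was in FKO 1 and the lowest in Con 1, 1.41 times apart, so the FKO mice lay inside the spread of the Con mice but for FKO 1. The means were 327 ± 43.5 in FKO and 334 ± 39.6 in Con, with a log2 difference of −0.04 (standard error 0.14, exact permutation p = 0.821). The 95% interval ran from −0.36 to 0.28, a fold of between 0.781 and 1.22.

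Slc2a1, which encodes GLUT1, the carrier that takes up glucose without insulin and is abundant in endothelium and red cell precursors, varied more. It read 405, 690 and 410 in FKO 1 to 3, against 680, 469, 722, 512 and 375 in Con 1 to 5 (ILMN_1258159). FKO 2, Con 1 and Con 3 stood apart as the 3 highest. The log2 difference was −0.15 (standard error 0.28, 95% interval −0.79 to 0.48, exact permutation p = 0.643), between means of 502 ± 163 in FKO and 551 ± 146 in Con.

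Hk2, the hexokinase of insulin-sensitive tissues that traps glucose as glucose 6-phosphate, was far above background in every mouse (ILMN_1239397). It read 4349, 5330 and 4563 in FKO 1 to 3, against 5232, 4215, 6773, 5012 and 4380 in Con 1 to 5. The order began with the same mice as for Slc2a1, namely Con 3, FKO 2 and Con 1, and the FKO values fell inside the Con range. The means were 4747 ± 516 in FKO and 5122 ± 1020 in Con, with a log2 difference of −0.09 (standard error 0.16, 95% interval −0.45 to 0.26, exact permutation p = 0.679).

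Pfkfb3, whose product makes fructose 2,6-bisphosphate and so drives phosphofructokinase, was close to background in all mice, where small folds are compressed. It read 133, 122 and 128 in FKO 1 to 3, against 122, 120, 125, 146 and 134 in Con 1 to 5 (ILMN_2860174). Con 4 was highest, and the other 7 mice lay within a narrow band. The log2 difference was −0.03 (standard error 0.10, 95% interval −0.26 to 0.21, exact permutation p = 0.821).

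Pck1 encodes cytosolic PEPCK, which in fat feeds the making of glycerol 3-phosphate during fasting. It read 252, 137 and 129 in FKO 1 to 3, against 143, 164, 144, 293 and 173 in Con 1 to 5 (ILMN_1213632). Con 4 and FKO 1 were again the highest pair, and Con 4 lay far from the other Con mice, which were between 142.6 and 172.9. The means were 173 ± 69.1 in FKO and 183 ± 62.7 in Con, with a log2 difference of −0.14 (standard error 0.37, 95% interval −0.99 to 0.71, exact permutation p = 0.768).

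Across the members, none separated FKO from Con. limma called 0 of the 8 tested members at an adjusted p under 0.05, each with an adjusted p that rounds to 1, against 0 of 13665 tested probes (0%). At an unadjusted p under 0.05, 0 of 8 members passed, against 580 probes (4.24%). The per-probe test that the methods name, at p under 0.01 with a fold above 1.5, called 0 members, against 1 probe (0.00732%), that of the gap junction gene Gja1. Here that test was run on background-corrected values of the tested probes only. The study itself reports many more genes at these thresholds. FKO and Con did not overlap for 0 members, against 354 probes (2.59%). Of the 8 members 1 difference was positive (Irs2) and 7 were negative, with a median of −0.12 on the log2 scale, while over all 9525 tested genes the median was −0.02 and 43.3% were positive. The signs of Irs2, Pck1, Slc2a4, Hk2 and Pfkfb3 turned when certain single mice were left out, and those of Akt2, Foxo1 and Slc2a1 did not. Without FKO 2, limma called 188 probes (186 higher and 2 lower in FKO), and without Con 5 it called 16, all lower, with 0 members called in either case. The FKO mice left without FKO 2, FKO 1 and FKO 3, were those highest in epididymal transcripts, whose part in the 188 was not tested. The 95% intervals were widest for Irs2, Pck1 (a fold of between 0.505 and 1.63) and Slc2a1 (0.579 to 1.40). The exact permutation test over all 56 ways to assign the labels can give no p below 0.0179.

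**Figure D2:**
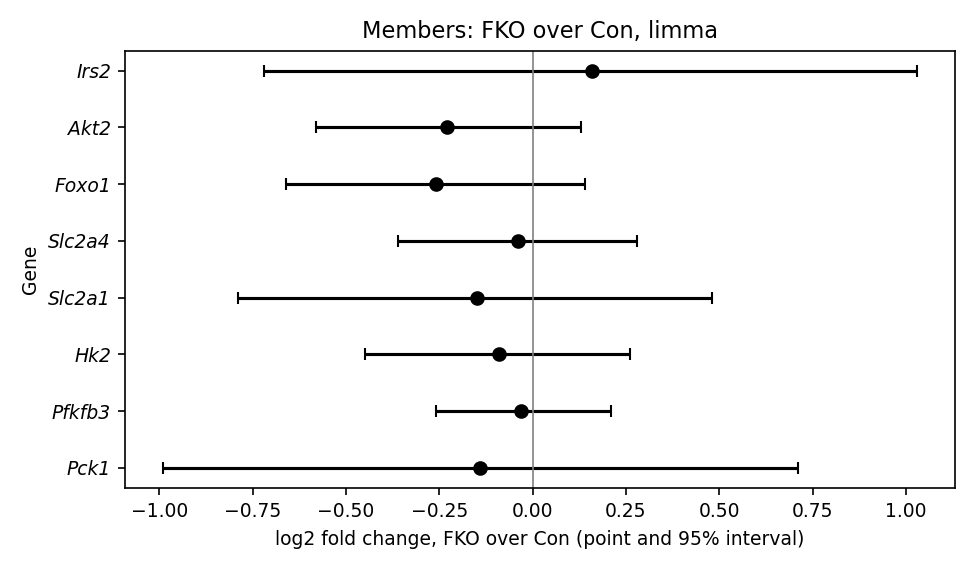
log2 fold change (FKO over Con) of the 8 tested members from limma, the point being the estimate and the line its 95% interval. All 8 intervals include 0, and those of Irs2, Pck1 and Slc2a1 are the widest.

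In 6 of the 8 members (Irs2, Pck1, Slc2a1, Hk2, Foxo1 and Akt2) the highest value was at least 1.5 times the lowest, against 21.8% of tested probes. These ratios are of intensities with background left in, which compresses folds near background. The mean levels of the 6 lay between percentiles 73.7 (Pck1) and 99.2 (Hk2) of all probes. The tested probes include dimmer ones, so this comparison is not matched for level. FKO 1 and Con 4 were the 2 highest mice for 2 of 8 members, Irs2 and Pck1, against 5.89% of tested probes. FKO 2, Con 1 and Con 3 were the 3 highest for another 2, Slc2a1 and Hk2, against 14.4%, and the 3 lowest for 1, Irs2, against 11.3%. With 8 members these counts are small, and they are descriptions of mice, not groups of the study. The mice were set with the values of these members in view, so the shares beside them are no test.

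**Figure D3:**
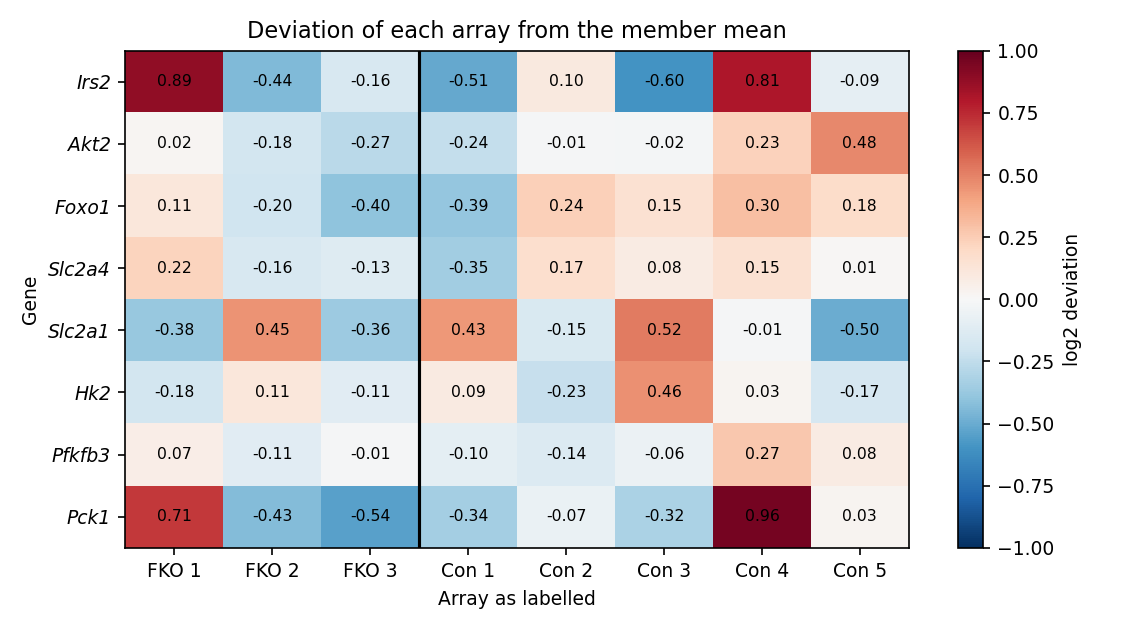
Deviation of each mouse from the mean of the 8 mice (log2 scale after background correction), 1 row per member, with FKO mice left of the black line and Con mice right of it. Irs2 and Pck1 share their high mice, FKO 1 and Con 4, and Slc2a1 and Hk2 share theirs, FKO 2, Con 1 and Con 3.

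Irs2 lay 0.89 above its own mean on the log2 scale in FKO 1 and 0.81 above it in Con 4, and 0.60 below it in Con 3. Pck1 lay 0.71 above its mean in FKO 1 and 0.96 above it in Con 4, and was lowest in FKO 3, 0.54 below it. The mean absolute difference between the centred log2 values of Irs2 and Pck1 over the 8 mice was 0.185, against 0.114 for the closest of the 28 member pairs (Slc2a4 and Foxo1) and 0.739 for the farthest (Irs2 and Slc2a1). Slc2a4 and Foxo1 were both lower in Con 1, FKO 2 and FKO 3 than in the other 5 mice. Hk2 and Slc2a1 were 0.204 apart, and the larger swings were those of Slc2a1, 0.52 above its mean in Con 3 and 0.50 below it in Con 5.

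Markers of other cell types moved between the same mice. The summed level of 8 endothelial markers, such as Pecam1 and Cdh5, was 2602, 3880 and 1521 in FKO 1 to 3, against 3445, 2172, 3359, 2189 and 2644 in Con 1 to 5. Its 3 highest mice, FKO 2, Con 1 and Con 3, were those highest in Slc2a1 and Hk2. Of these markers 7 were above background in every mouse, and their part in the Slc2a1 and Hk2 levels was not tested. Kdr, near background, ran the other way, highest in Con 4 (111.7) and FKO 1 (109.7) and lowest in FKO 2 (104.7). FKO 2, Con 1 and Con 3 were also the highest for 14.4% of all tested probes, Col1a1 and Cidea among them. Over 5 mesothelial markers the sum was 1041, 518 and 551 in FKO 1 to 3. In Con 1 to 5 it was 654, 647, 921, 1335 and 780. This sum was highest in the mice highest in Irs2 and Pck1, Con 4 and FKO 1, as were Upk3b and Wt1. The other markers, Msln, Krt19 and Lrrn4, did not have these mice as their highest pair. Msln read 115.5 in FKO 1, against 117.6 to 133.5 in Con. Erythroid markers ran otherwise, with 12350 to 13280 in FKO and 7984 to 12470 in Con.

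A list of 12 hepatocyte genes, added after the values of the genes nearest to Irs2 had been seen, summed to 916, 77.8 and 420 in FKO 1 to 3, against 74.2, 895, 26.2, 985 and 401 in Con 1 to 5. The 3 lowest mice, Con 3, Con 1 and FKO 2, were the 3 lowest in Irs2. The list holds Ahsg, the gene nearest to Irs2 (below), so a part of this likeness was built in. Of the 12 genes 2 were above background in every mouse, and Alb, Fgb and Tat, which hepatocytes make in quantity or nearly alone, were above it in none. The part of these transcripts in the Irs2 level was not tested.

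For each member that varied by at least 1.5 times, the 3 probes of other genes with the closest centred log2 values over the 8 mice were listed. Nearest to Irs2 were Ahsg (a plasma glycoprotein, mean absolute difference 0.095), Pon1 (a plasma esterase, 0.128) and Ugt2b36 (a glucuronosyltransferase, 0.147), where Irs2 itself deviated from its mean by 0.451 on average. Ahsg (ILMN_2764036) read 185, 110 and 129 in FKO 1 to 3, against 110, 163, 105, 203 and 133 in Con 1 to 5. This probe had the same 2 highest and 3 lowest mice as Irs2, at a level near background. The brighter Ahsg probe, ILMN_2993745, had the same 3 lowest mice. Its highest mice were Con 4 (230.4), Con 2 (215.5) and FKO 1 (213.8). Pck1 was followed less closely, by Nr2f1 (0.153), Sult1a1 (0.154) and Lrrc8a (0.172), for an own deviation of 0.427.

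Slc2a1 (own deviation 0.351) was nearest to Morn5 (0.046), Vangl2, a planar polarity protein (0.059), and Sptb, the erythroid beta spectrin (0.075). Hk2 (0.173) was nearest to Sypl (0.047), Tkt, the transketolase of the pentose phosphate pathway (0.056), and Dcaf15 (0.061). Tkt read 3854, 4669 and 3958 in FKO 1 to 3, against 4255, 3603, 5491, 4472 and 4215 in Con 1 to 5, with Con 3 and FKO 2 highest as for Hk2. Foxo1 (0.246) was nearest to Map3k6 (0.072), Pparg, the adipocyte transcription factor (0.08), and Tsc22d3, a glucocorticoid-induced gene (0.084). This Pparg probe, ILMN_1221594, was lowest in FKO 3 (266.7). The brightest Pparg probe, ILMN_1221060, counted above among the adipocyte markers, was lowest in Con 1 (2701). Akt2 (0.182) was nearest to Hdhd2 and to Gpam, which starts triglyceride synthesis (0.068 each), and to Eri3 (0.076). These neighbours are the closest among 13665 probes over 8 mice and are given as a description.

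Of 6 enzymes of fatty acid synthesis, a use of glucose in fat, 4 had FKO 1 and Con 4, the mice highest in Irs2 and Pck1, as their 2 lowest mice, against 8.57% of tested probes. Fasn, the fatty acid synthase, read 155, 257 and 220 in FKO 1 to 3, against 223, 226, 253, 159 and 249 in Con 1 to 5. Acaca, the acetyl-CoA carboxylase that precedes it, read 2655, 3922 and 2897 in FKO 1 to 3, against 3840, 3214, 4998, 2365 and 4306 in Con 1 to 5. The 4 were these and Acly and Elovl6. Scd1, the desaturase, was highest in Con 4 (14430), followed by Con 5 and FKO 1 (13070 each). Me1, the malic enzyme, was lowest in FKO 1 (1518) and Con 2 (1756). These enzymes were chosen after the pattern of Irs2 and Pck1 had been seen, so the count is a description.

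**Figure D4:**
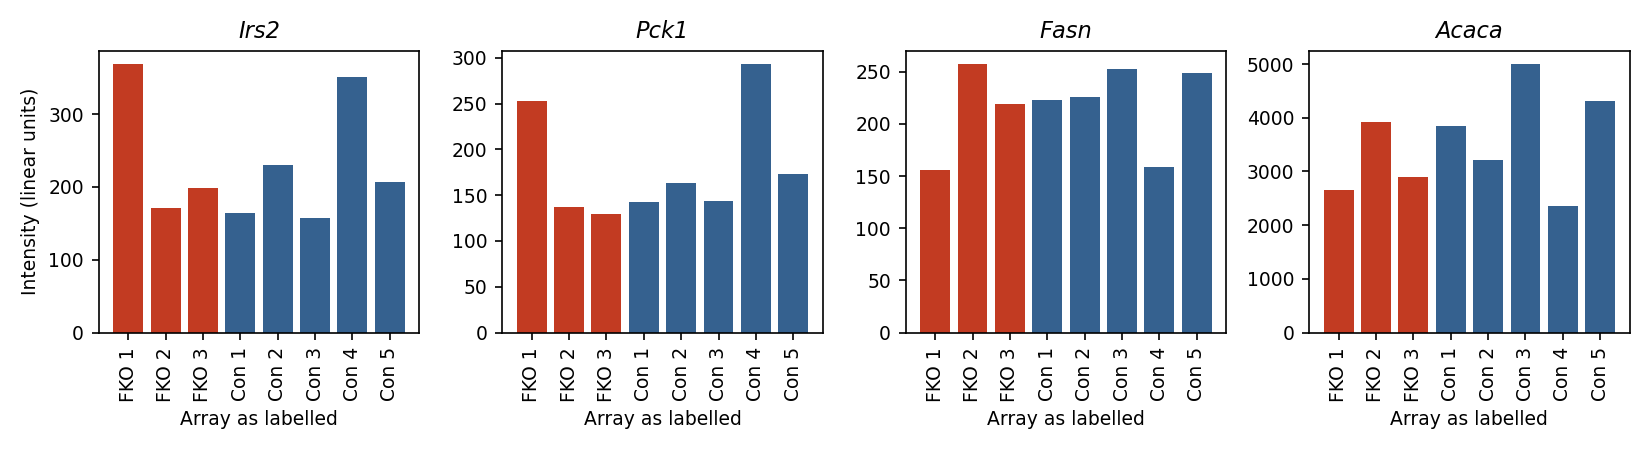
Intensity (linear units, as deposited) of Irs2, Pck1, Fasn and Acaca in each mouse, FKO in red at the left and Con in blue at the right of each panel. Irs2 and Pck1 are highest, and Fasn and Acaca lowest, in FKO 1 and Con 4. Scd1 and Me1, which are not drawn, did not have these mice as their lowest pair.

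Beyond the members, 161 genes of insulin action and glucose use in 8 lists were examined, of which 143 had a probe and 111 were tested. limma called 0 of the 111 higher and 0 lower in FKO. Of them 35 had a positive and 76 a negative difference, with a median of −0.04, and 5 (4.50%) had an unadjusted p under 0.05 (Fbp2, Fbp1, Ppp1r3c, Pdk4 and Aldoc), a share near the 4.62% of all tested genes. FKO 1 and Con 4 were the 2 highest mice for 7 of the 111 genes (6.31%), against 6.28% of all tested genes, and the 2 lowest for 9 (8.11%), against 8.67%, shares near those of all tested genes. Tbc1d4, Lnpep and Gyk had no probe that could be matched, and Akt1 and Pck2 were above background in 0 mice.

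The insulin cascade list, from phosphatidylinositol 3-kinase to mTOR and its brakes, had 30 tested genes, 13 with a positive and 17 with a negative difference (median −0.01). Pik3r1, the regulatory subunit of phosphatidylinositol 3-kinase, read 1685, 1163 and 1443 in FKO 1 to 3, against 1128, 1894, 2363, 1395 and 1671 in Con 1 to 5 (log2 difference −0.22, standard error 0.24). Prkcz, an atypical protein kinase C, read 123 to 148 in FKO and 125 to 191 in Con. For GLUT4 vesicle traffic 3 of 15 differences were positive and 12 negative (median −0.03). Vamp2, the vesicle SNARE of GLUT4, read 446, 341 and 405 in FKO 1 to 3, against 370, 355, 420, 506 and 377 in Con 1 to 5, with FKO 1 and Con 4 highest as for Irs2. Lrp1, a receptor carried on the same vesicles, read 134 to 166 in FKO and 163 to 179 in Con.

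Among other glucose carriers and hexokinases 3 of 7 differences were positive and 4 negative, with a median at 0. Slc2a3, which encodes GLUT3, read 388, 246 and 406 in FKO 1 to 3, against 223, 248, 331, 326 and 219 in Con 1 to 5, and its 2 highest mice were FKO 3 and FKO 1. Its log2 difference of 0.41 had a standard error of 0.24 and did not pass the test. Slc2a10 read 142 to 190 in FKO and 120 to 187 in Con, and Hk1, the hexokinase of most tissues, was near background at 103 to 111 in FKO and 102 to 108 in Con.

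Of 16 tested genes of glycolysis and lactate 3 differences were positive and 13 negative (median −0.08). Pfkp, the platelet phosphofructokinase, read 185, 402 and 344 in FKO 1 to 3, against 421, 285, 365, 222 and 349 in Con 1 to 5. FKO 1 and Con 4 were its lowest pair. Pfkm, the muscle form, ran the other way, with FKO 1 (380) and Con 4 (363) highest and FKO 2, Con 1 and Con 3 near 218. Pfkl, the liver form, differed by −0.05 (standard error 0.10). Pkm, pyruvate kinase, and Ldha, lactate dehydrogenase, differed by 0.02 (standard error 0.13) and −0.12 (standard error 0.11), and Pkm was lowest in Con 4 and FKO 1.

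For glycerol 3-phosphate and gluconeogenesis 3 of 11 differences were positive and 8 negative (median −0.07). Fbp2, the muscle fructose 1,6-bisphosphatase, showed the largest difference of the 111 genes. It read 149, 215 and 136 in FKO 1 to 3, against 321, 312, 361, 380 and 167 in Con 1 to 5, so that only Con 5 overlapped with FKO (log2 difference −1.06, standard error 0.34, limma unadjusted p = 0.0136, adjusted p = 1). Fbp1, the liver form, read 124, 112 and 124 in FKO 1 to 3, against 150, 186, 160, 204 and 115 in Con 1 to 5, again with Con 5 inside the FKO range. The summed level of 7 skeletal muscle markers ran from 192 to 529 in FKO and from 199 to 853 in Con, with Myh4 and Tnnt3 above background in none, and its part in Fbp2 was not tested. Gpd1, which makes glycerol 3-phosphate from a glycolytic intermediate, read 959, 1579 and 1441 in FKO 1 to 3, against 1263, 1456, 1628, 973 and 1642 in Con 1 to 5, lowest in FKO 1 and Con 4.

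In the glycogen list 4 of 12 differences were positive and 8 negative (median −0.04). Ppp1r3c, a scaffold that targets protein phosphatase 1 to glycogen, read 1214, 886 and 896 in FKO 1 to 3, against 931, 1671, 2645, 2205 and 1312 in Con 1 to 5. Con 1 lay among the FKO mice and the other 4 Con mice above them (log2 difference −0.75, standard error 0.33, limma unadjusted p = 0.0495, adjusted p = 1). Gys1, the muscle glycogen synthase, differed by −0.04 (standard error 0.07), and Gys2, the liver form, by 0.16 (standard error 0.30).

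Regulators that respond to glucose or insulin had 5 positive and 6 negative differences of 11 (median −0.03). Txnip, a ChREBP target that restrains glucose uptake, read 2805, 1820 and 1282 in FKO 1 to 3, against 1951, 2170, 2639, 3747 and 1993 in Con 1 to 5, with Con 4 and FKO 1 highest. Srebf1, the lipogenic factor that insulin induces, read 256, 176 and 330 in FKO 1 to 3, against 168, 308, 207, 219 and 357 in Con 1 to 5, lowest in Con 1 and FKO 2. Mlxipl, which encodes ChREBP, differed by −0.24 (standard error 0.14).

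Transcripts that FOXO factors or fasting raise had 1 positive and 8 negative differences of 9, with the lowest median of the 8 lists, −0.13. Pdk4, the fasting-induced kinase that shuts pyruvate dehydrogenase, read 329, 345 and 259 in FKO 1 to 3, against 337, 363, 447, 425 and 371 in Con 1 to 5, and only Con 1 overlapped with FKO (log2 difference −0.37, standard error 0.14, limma unadjusted p = 0.0291, adjusted p = 1). Klf9, a glucocorticoid-responsive factor, differed by −0.42 (standard error 0.21). Pnpla2, the triglyceride lipase ATGL, was lowest in FKO 3 at 5181, against 7466 to 11190 in Con and 9670 and 10220 in FKO 1 and FKO 2.

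**Figure D5:**
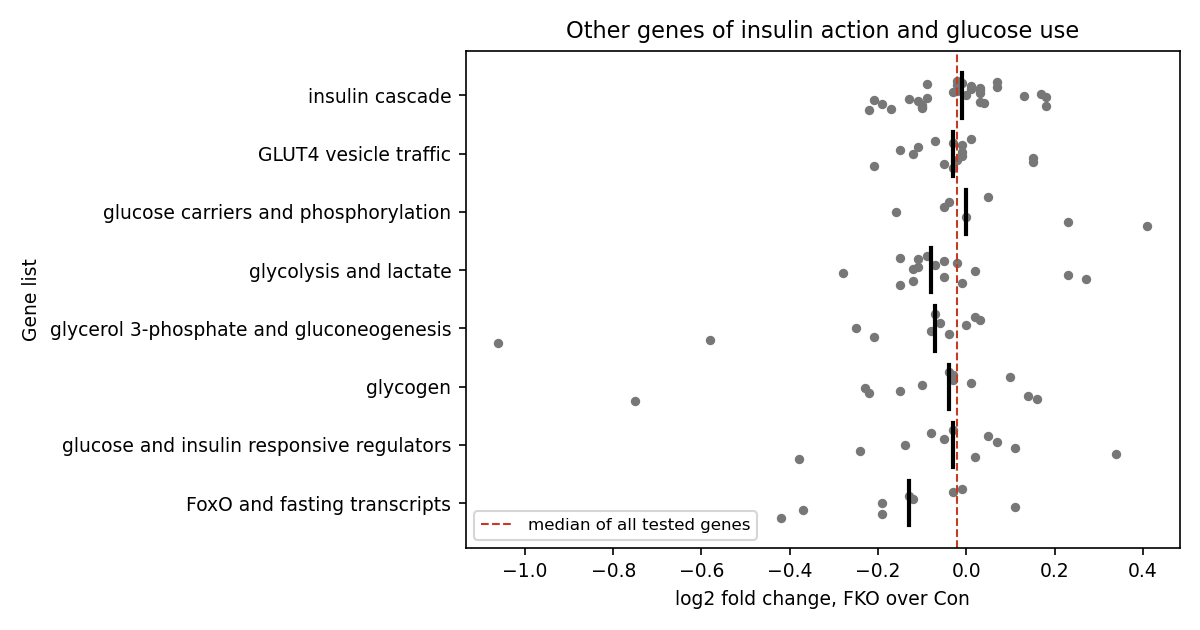
log2 fold change (FKO over Con) of 111 tested genes in 8 lists of insulin action and glucose use, 1 point per gene, with the black line at the median of each list and the dashed line at the median of all tested genes (−0.02). Fbp2 is the point at −1.06, Ppp1r3c that at −0.75 and Fbp1 that at −0.58, none of them past an adjusted p of 0.05.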

How the data were processed

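The authors deposited intensities that were quantile-normalized, by the study's methods, from Illumina MouseRef-8 v2.0 arrays of pgWAT RNA, 1 array per mouse. The deposited intensity values are linear and run from 87.0 to 18023 on each array. Any background step and the software are not given in the sources used here. A second table of non-normalized signals was not used, because its 16 columns name no sample. Groups came from the sample labels. Of 25697 probes, 23978 carry 1 gene symbol, 0 several and 1719 none, and 23962 matched RefSeq by Entrez ID.

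The normexp correction (offset 50) was followed by quantile normalization and a log2 transform. Probes were fitted by label with limma 3.58.1 in R 4.3.3 (lmFit, eBayes, two-sided). The 13665 probes above the background limit on at least 3 arrays were tested, with Benjamini-Hochberg adjustment over all of them and a threshold of 0.05. That limit, 106.5, lies as far above the mode of 98.8 as the lowest 1% of sub-mode values reach below it. Single members were also given an exact permutation test over 56 assignments. The methods' own test, a t-test per probe, was run with equal variances at p under 0.01 and a fold above 1.5. Promoters came from RefSeq GRCm38.p6. A gene is given by its brightest probe unless named, and a gene of like pattern by the probe that was nearest. Marker sums are intensities above 98.8, added over the genes of a list.

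Named were all members, Ogt, the 2 genes of each list with the widest spread over all arrays, and Pik3r1, Tbc1d4, Akt1, Hk1, Pfkl, Pfkp, Pkm, Ldha, Pck2, Gpd1, Gyk, Gys1, Mlxipl, Txnip, Pdk4, Lnpep and Slc2a3; 1 further gene is not reported here. To these come any called probe and, for members varying by at least 1.5 times, the 3 nearest probes. Aldoc and the fatty acid synthesis and hepatocyte genes were named after their values were seen. The members and lists were chosen with earlier results of these data known. The spread behind each p-value is that among these mice, whose number sets the precision. The code was tested on simulated data. Alternatives were no background correction, an offset of 16, centring, other level filters, trended and robust eBayes, array weights, the replicate number as a block, leaving out arrays, and forms of the t-test. Slide and scan were not named, so no batch could be fitted. Figures were drawn with matplotlib 3.10.9.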

Additional observations from a re-analysis of the deposited data

Results flagged for a closer look

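For 2 members, 1 Con mouse lay far from the other 4, by Dixon's criterion for 5 values, where the gap to the nearest value is set against the range and 0.71 is the limit. Pck1 read 293.0 in Con 4, with the other Con mice between 142.6 and 172.9 (gap 0.799 of the range). Foxo1 read 310.2 in Con 1, with the other Con mice between 431.2 and 474.7 (gap 0.736 of the range). Chance alone marks about 1 in 20 such groups, and 35 probes were looked at in this way, of which these were the 2 marked.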

How the results depend on the processing

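In 18 alternative settings limma called 0 members and 0 genes of the pathway lists, and the smallest adjusted p of a member was 0.64. Over all probes it called 0, except that leaving out 1 mouse gave 0 to 188 (16 without Con 5 and 188 without FKO 2), and leaving out Con 1, Con 3 and FKO 2 gave 1. In every fit without FKO 2 the FKO mice were those highest in epididymal transcripts. The methods' t-test called 1 probe, lower in FKO. On linear values it called 1, higher in FKO and so a different probe. With unequal variances it called 3, all lower, and after Benjamini-Hochberg adjustment 0. Of 144 member differences under an alternative, 125 kept their sign and 19 turned, and the causes were not tested. With array weights the log2 differences (FKO minus Con) were 0.305 for Pck1, 0.0411 for Pfkfb3 and 0.107 for Slc2a4, which turned, and 0.629 for Irs2 and −0.390 for Slc2a1, against 0.156 and −0.154 with equal weights. With the replicate number as a block they were 0.159 for Pck1, 0.0827 for Pfkfb3 and 0.00839 for Slc2a4, which turned, and 0.435 for Irs2, −0.363 for Slc2a1 and −0.0478 for Akt2, and 0 probes were called. Same-numbered FKO and Con mice deviated from their group means with correlations of −0.56, −0.70 and −0.41. Each FKO mouse correlated best with a Con mouse of another number. Centring on group means makes some of these correlations negative, and tissue make-up varied between mice. Pairing by litter or handling therefore cannot be judged from them. The mice highest in epididymal transcripts were Con 2, FKO 1 and FKO 3. Without these mice the log2 differences were 0.0135 for Hk2, −0.341 for Irs2 and 0.344 for Slc2a1. FKO 2 then stood alone and was assumed to vary like the Con mice. Leaving out 1 mouse at a time gave −0.308 to −0.128 for Akt2, −0.395 to −0.138 for Foxo1, −0.428 to −0.0111 for Slc2a1, −0.182 to 0.0119 for Hk2 (positive without Con 3), −0.241 to 0.425 for Irs2 (negative without FKO 1), −0.537 to 0.0903 for Pck1 (positive without Con 4, FKO 2 or FKO 3), −0.0701 to 0.0367 for Pfkfb3 (positive without Con 4 or FKO 2) and −0.158 to 0.0305 for Slc2a4 (positive without Con 2, FKO 2 or FKO 3). The smallest unadjusted p was 0.0163, for Foxo1 without Con 1. The second Akt2 probe, Insr and Irs1 lie at background, which limits what these arrays show of them.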
